A study of Mus musculus and Homo sapiens with 10 samples.

Results

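Trimethylation of histone H3 at lysine 4 (H3K4me3) was mapped by chromatin immunoprecipitation and sequencing (ChIP-seq) in NIH3T3, an immortalized line of mouse fibroblasts, and 13101 of its 27982 peaks are described here. They are the H3K4me3 peaks narrower than 5000 bp that overlapped no peak of RNA polymerase II (Pol II) by at least 1 bp. They made up 46.8% of the H3K4me3 list and 48.3% of its 27131 peaks under that width. They are called H3K4me3 sites without Pol II below, and are set against the 14030 H3K4me3 peaks under 5000 bp that did overlap a Pol II peak. The series holds 10 peak lists. The 7 used here come from exponentially growing NIH3T3 cells with no treatment named, and stand for H3K4me3, Pol II, H3K9ac, H4 hyperacetylation, H3K9me3, the Pol I transcription factor UBF, and RNA polymerase I (Pol I). The other 3 lists come from the human lines HMEC and HMLER and were not used here. The Pol II antibody (clone 4H8) was described as recognising the C-terminal repeat of Pol II phosphorylated at serine 5. A site without a peak is a site where no peak was called with that antibody. Whether it also bound other forms of Pol II was not tested here.

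H3K4me3 is a histone mark known for its place at the starts of active and poised genes. Acetylation of lysine 9 of the same histone (H3K9ac) and acetylation of histone H4 at several lysines (H4 hyperacetylation) are found in open, active chromatin, while trimethylation of lysine 9 (H3K9me3) is known for silent chromatin and repeats. Pol II phosphorylated at serine 5 is the form found near gene starts early in transcription. UBF and Pol I are known for their work on the ribosomal RNA genes.

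Each list gives the chromosome, start and end of its peaks and no score or read count, so the depth behind a peak is unknown. There is 1 list per antibody, hence no replicate error and no p-value. Shares are given with exact (Clopper-Pearson) 95% binomial intervals, which cover counting error over peaks only, and neighbouring peaks are not independent. The sites were chosen by the called Pol II peaks and by H3K4me3 width, so values of those lists below are descriptions and support nothing.

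The sites without Pol II were narrow. Their median width was 1143 bp (quartiles 869 and 1531 bp), against 2333 bp (1733 and 3026 bp) for the H3K4me3 peaks with Pol II. Together they covered 16.4 Mb, against 34.0 Mb with Pol II, and held 29.3% of the base pairs of the whole H3K4me3 list. Pol II was missing at 86.1% of the H3K4me3 peaks of 500 to under 1000 bp, at 47.3% of those of 1500 to under 2000 bp and at 3.83% of those of 3000 to under 5000 bp. In all, 46.8% of H3K4me3 peaks of any width lacked a Pol II peak, and only 6 of these were 5000 bp or wider.

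**Figure D1:**
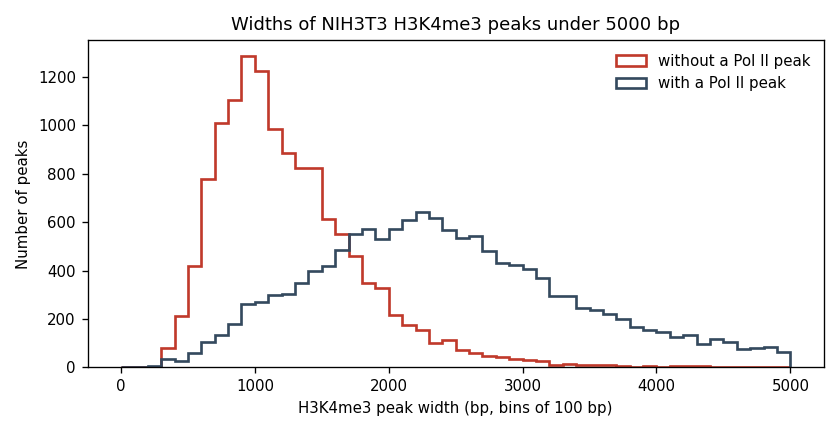
Number of H3K4me3 peaks (vertical axis) by width in bins of 100 bp (horizontal axis), for peaks without a Pol II peak (red) and with one (dark blue), all under 5000 bp. The medians lie at 1143 bp without Pol II and 2333 bp with Pol II, and the distributions overlap.

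Some peaks lay close to the limits of the definition. The sites without Pol II that lay closest to a Pol II peak had gaps of 3, 11 and 14 bp, on chromosome 9 from 56313390 to 56314484, on X from 103207451 to 103208343 and on chromosome 19 from 25068626 to 25069386. Just across that limit, H3K4me3 peaks on chromosomes 3, 12 and 14 overlapped a Pol II peak by 5, 6 and 6 bp and were not counted. The widest sites without Pol II measured 4936, 4867 and 4753 bp, and the next widths without Pol II were 5599, 5777 and 5843 bp. All coordinates are those of the files, in the mouse build mm9.

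With the full peak lists, most sites without Pol II met each acetylation mark, but a smaller share than of the peaks with Pol II. H3K9ac was met by 9346 sites without Pol II (71.3%, interval 70.6 to 72.1), against 13550 peaks with Pol II (96.6%, 96.3 to 96.9) and 84.9% of the whole H3K4me3 list. H4 hyperacetylation was met by 9902 sites without Pol II (75.6%, 74.8 to 76.3), against 13641 peaks with Pol II (97.2%, 96.9 to 97.5) and 87.2% of the list. The differences, without minus with Pol II, were -25.2 percentage points (-26.1 to -24.4) for H3K9ac and -21.6 points (-22.4 to -20.9) for H4 hyperacetylation. Where only the wider 50% of each of the other lists was kept, the sites were chosen again and numbered 17311. A minority of these sites without Pol II met each mark. The cut dropped H3K9ac peaks under the list median of 1586 bp. At the sites of the full lists the H3K9ac peaks had a median of 1197 bp. H3K9ac then stood at 26.8% without Pol II and 87.8% with it, a difference of -61.0 points. H4 hyperacetylation stood at 44.6% without Pol II and 90.9% with it, a difference of -46.3 points.

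The silent mark and the Pol I machinery were also met less often at sites without Pol II. H3K9me3 was met by 936 of them (7.14%, 6.71 to 7.60), against 2575 peaks with Pol II (18.4%, 17.7 to 19.004) and 13.9% of the whole H3K4me3 list. That gap depended on what counts as overlap. Where at least 50% of the H3K4me3 peak had to be covered, H3K9me3 stood at 5.18% without Pol II and 6.76% with it. That rule is harder to meet for a wide H3K4me3 peak. Where H3K9me3 was met, it covered a median of 79.0% of the peak without Pol II and 41.1% with it. In the 1000 bp around each H3K4me3 centre, H3K9me3 stood at 6.76% without Pol II and 16.5% with it. With the wider 50% of the other lists H3K9me3 stood at 5.81% without Pol II and 12.3% with it. UBF was met by 43 sites without Pol II (0.328%, 0.238 to 0.442), against 1529 peaks with Pol II (10.9%, 10.4 to 11.4) and 6.41% of the list. Pol I was met by 138 sites without Pol II (1.05%, 0.886 to 1.24), against 683 peaks with Pol II (4.87%, 4.52 to 5.24) and 3.26% of the list. With at least 50% of the H3K4me3 peak covered the UBF shares were 0.137% without Pol II and 3.35% with it, and with the wider 50% of the other lists 0.572% and 10.5%. Pol I peaks, with a median of 230 bp, are too narrow to cover that much of most H3K4me3 peaks.

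**Figure D2:**
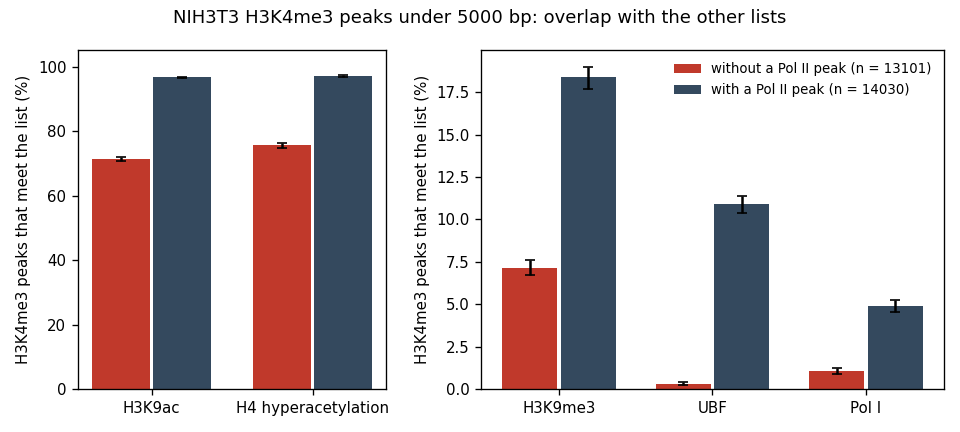
Share of H3K4me3 peaks under 5000 bp that met each list (percent), for 13101 peaks without a Pol II peak (red, left bars) and 14030 with one (dark blue, right bars). Error bars are exact 95% binomial intervals over peaks. All 5 shares were lower without Pol II, by 3.81 points for Pol I and by 25.2 points for H3K9ac.

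The gap in acetylation was smaller among peaks of like width, and wide H3K4me3 peaks were nearly all acetylated in both sets. Among peaks of 500 to under 1000 bp, H3K9ac was met by 54.2% (52.7 to 55.6) without Pol II and 72.4% (69.0 to 75.6) with it. At 1500 to under 2000 bp the shares were 89.9% (88.6 to 91.1) without Pol II and 98.3% (97.7 to 98.8) with Pol II. At 3000 to under 5000 bp H3K9ac was met by 142 of 144 sites without Pol II and by 3616 of 3617 peaks with Pol II. Averaged over 6 width groups with the widths of the sites without Pol II, the difference was -13.6 points (-15.1 to -12.2) for H3K9ac and -13.0 points (-14.3 to -11.6) for H4 hyperacetylation.

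H3K9me3, UBF and Pol I behaved differently with width. At the widths of the sites without Pol II the H3K9me3 difference was -11.9 points (-13.3 to -10.6), about as large as in the whole sets. In the sites without Pol II the H3K9me3 share stayed between 5.71% and 10.8% in every width group. In the peaks with Pol II it was lowest at 10.7% for 1500 to under 2000 bp and reached 28.0% at 3000 to under 5000 bp. Under 500 bp it was 84.1% (58 of 69 peaks, 73.3 to 91.8). The gap was uneven over the widths. At 500 to under 1000 bp, with 35.1% of the sites without Pol II, H3K9me3 stood at 7.22% without Pol II and 27.7% with it. At 1500 to under 2000 bp it stood at 8.61% and 10.7%. Averaged over the width groups in the same way, the differences were -4.11 points (-4.70 to -3.51) for UBF and -1.53 points (-2.04 to -1.02) for Pol I. In the sites without Pol II, UBF reached 2.08% (0.432 to 5.97) and Pol I 6.25% (2.90 to 11.5) in the widest group. The peaks with Pol II stood there at 19.05% (17.8 to 20.4) for UBF and 7.93% (7.07 to 8.86) for Pol I, so that the Pol I intervals overlapped.

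**Figure D3:**
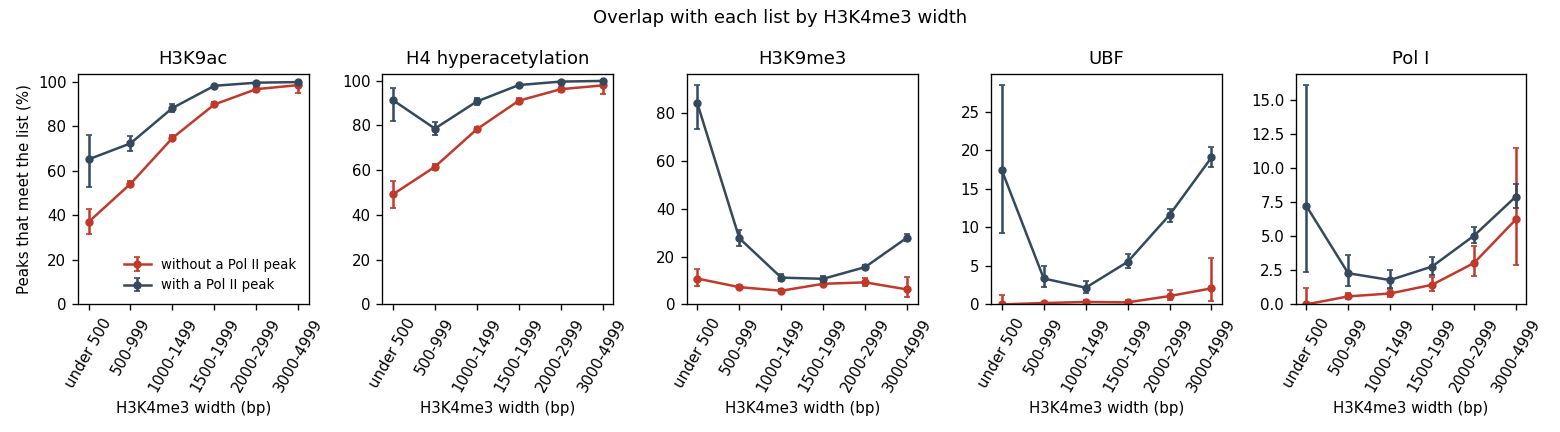
Share of H3K4me3 peaks that met each list (percent) in 6 groups of H3K4me3 width (bp), without a Pol II peak (red) and with one (dark blue), with exact 95% binomial intervals. The vertical scales differ between panels. The red points lie below the blue ones in every group, with overlapping intervals for Pol I at 3000 to under 5000 bp and for H3K9me3 at 1500 to under 2000 bp.

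By acetylation the sites fell into 4 states. Both marks were met by 8136 sites without Pol II (62.1%, 61.3 to 62.9), against 13348 peaks with Pol II (95.1%, 94.8 to 95.5). Neither mark was met by 1989 sites without Pol II (15.2%, 14.6 to 15.8) and by 187 peaks with Pol II (1.33%, 1.15 to 1.54). H4 hyperacetylation alone was met by 1766 sites (13.5%) and H3K9ac alone by 1210 (9.24%). The sites with both marks were the widest, with a median of 1335 bp, and those with neither the narrowest, at 876 bp. A total of 1889 sites (14.4%) met none of the 5 lists described here, against 157 peaks with Pol II (1.12%).

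H3K9me3 was distributed unevenly over these states. It was met by 251 of the sites with H4 hyperacetylation alone (14.2%, 12.6 to 15.9) and by 23 of those with H3K9ac alone (1.90%, 1.21 to 2.84). Sites with both marks stood at 7.03% (6.48 to 7.61) and those with neither at 4.52% (3.65 to 5.53). The contrast between the single marks was present in each width group that held over 40 sites of both kinds. At 500 to under 1000 bp H3K9me3 was met by 138 of 874 sites with H4 hyperacetylation alone (15.8%, 13.4 to 18.4), against 7 of 537 with H3K9ac alone (1.30%, 0.526 to 2.67). At 1000 to under 1500 bp the shares were 10.1% with H4 hyperacetylation alone and 2.05% with H3K9ac alone. The peaks with Pol II showed the same order, at 43.3% (37.6 to 49.2) with H4 hyperacetylation alone and 3.47% (1.40 to 7.01) with H3K9ac alone.

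Where acetylation was present it lay over the site itself. The H3K9ac part covered a median of 90.8% of a site without Pol II (quartiles 78.3% and 98.4%), against 94.1% of a peak with Pol II. Its peak was of similar size to the site, with a median of 1197 bp, and the centres lay a median of 85 bp apart. The centre of the site was covered at 97.4% of the sites with H3K9ac and at 95.7% of those with H4 hyperacetylation. Few of these acetylation peaks reached on to a Pol II peak: 280 sites (2.996%, 2.66 to 3.36) lay under an H3K9ac peak that itself met Pol II. In those 280 the H3K9ac peak was wide, with a median of 3586 bp, and Pol II lay a median of 524 bp from the site. In the other 9066 the medians were 1176 bp and 15560 bp. Sites without H3K9ac lay a median of 13197 bp from the nearest H3K9ac peak.

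The widest sites with both marks included one on chromosome 10 from 83926608 to 83931544 (4936 bp), 2849 bp from Pol II. It held 4 H3K9ac peaks over 4053 bp and 3 H4 hyperacetylation peaks over 4640 bp. The next, on chromosome 10 from 59380048 to 59384915 (4867 bp), lay wholly inside a single H3K9ac peak of 6132 bp. On chromosome 1, a site from 161320361 to 161325114 (4753 bp) lay 157082 bp from any Pol II peak. The remaining 2 of the 5 widest lay on chromosome 11, from 83267690 to 83272428 and from 102436456 to 102441123.

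Wide sites with neither acetylation mark were rare, and the widest measured 2539 bp. It lay on chromosome 7 from 87255399 to 87257938, 1297 bp from a Pol II peak, and met none of the 5 lists. The second widest, on chromosome 5 from 140049162 to 140051651 (2489 bp), lay 88126 bp from Pol II, and an H3K9me3 peak covered 31.2% of it. The next lay on chromosome 11 from 53120496 to 53122968, on chromosome 4 from 59769235 to 59771662 and on chromosome 19 from 44973243 to 44975584, with no other list.

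At the sites without Pol II, H3K9me3 covered more of the peak than at the peaks with Pol II. The covered part had a median of 79.0% of the site (quartiles 47.2% and 100%), against 41.1% (30.2% and 64.7%) with Pol II, where the H3K4me3 peaks were wider. The H3K9me3 peaks themselves were of like size, with medians of 1261 bp without Pol II and 1149 bp with it. Of the 936 sites, 273 (29.2%, 26.3 to 32.2) lay wholly inside H3K9me3, against 333 of 2575 (12.9%, 11.7 to 14.3) with Pol II. An H3K9me3 peak of 5000 bp or more met 16 of the sites without Pol II (1.71%) and 51 of the peaks with Pol II (1.98%).

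The site with most H3K9me3 lay on chromosome 11 from 119068611 to 119071414. H3K9me3 covered all of its 2803 bp and H4 hyperacetylation 2719 bp, while no H3K9ac peak met it. On chromosome 11 from 94936120 to 94938879, H3K9me3, H3K9ac and H4 hyperacetylation covered 2446, 2418 and 2472 bp of 2759 bp. The others of the 5 lay on chromosome 2 from 113287284 to 113290466 and from 32508590 to 32512078, and on chromosome 11 from 22872280 to 22874677. These 3 met both acetylation marks, with H3K9me3 over 87.2%, 69.6% and 96.3% of the site.

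The 43 sites with UBF were wider than the rest, with a median of 1368 bp against 1142 bp for the sites without UBF. H3K9ac was met by 37 of them (86.0%, 72.1 to 94.7), and by 71.3% of the sites without UBF. The H3K9ac share rose with width over all sites without Pol II, and the part of width here was not tested. H3K9me3 was met by 3 of the UBF sites (6.98%, 1.46 to 19.1), near the 7.15% of the sites without UBF. Of the peaks with both Pol II and UBF, 440 met it (28.8%, 26.5 to 31.1). The peaks with Pol II but without UBF stood at 17.1%. UBF covered the centre of the site at 24 of 43 sites without Pol II (55.8%, 39.9 to 70.9), against 1284 of 1529 peaks with Pol II (84.0%, 82.0 to 85.8). The UBF peaks had medians of 971 bp without Pol II and 1129 bp with it. UBF sites without Pol II lay a median of 26481 bp from the nearest Pol II peak (quartiles 14414 and 74842 bp). The median was 16432 bp for the sites without UBF.

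The widest of them, on chromosome 7 from 137407005 to 137410675 (3670 bp), held UBF over 1104 bp. The next, on chromosome 6 from 52124857 to 52128354 (3497 bp), held UBF over 736 bp, H3K9me3 over 1397 bp and both acetylation marks, 4208 bp from Pol II. The other 3 widest lay on chromosome 1 from 173976954 to 173980081, on chromosome 5 from 36825315 to 36828008 and on chromosome 11 from 58114273 to 58116946. Besides the chromosome 6 site, H3K9me3 was present at UBF sites on chromosome 1 from 16508472 to 16510379 and on chromosome 11 from 79602719 to 79604653. These 2, and the sites with UBF and Pol I below, were chosen after their values were seen.

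UBF and Pol I met the same site 4 times without Pol II, which was 9.30% of the UBF sites and 2.90% of the Pol I sites. With Pol II the shares were 8.96% and 20.1% (137 peaks). The base shares differed between the sets. UBF was met by 0.328% of all sites without Pol II and by 10.9% of all peaks with Pol II. Pol I was met by 1.05% and 4.87% of them. The 4 sites with UBF and Pol I lay on chromosome 1 from 120264596 to 120266385, on chromosome 11 from 58114273 to 58116946, and on chromosome 4 from 32604968 to 32606193 and from 88286367 to 88287541. On chromosome 11 the site met 2 Pol I peaks over 451 bp and UBF over 1210 bp, 3301 bp from Pol II. The chromosome 4 sites lay 95725 and 79311 bp from Pol II.

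Pol I sites without Pol II had a median width of 1578 bp, against 1140 bp for sites without Pol I. H3K9ac was met by 123 of the 138 (89.1%, 82.7 to 93.8) and H4 hyperacetylation by 119 (86.2%, 79.3 to 91.5), against 71.1% and 75.5% of the sites without Pol I. Over all sites without Pol II, both marks rose with width. From 500 to under 1000 bp to 1500 to under 2000 bp, H3K9ac went from 54.2% to 89.9% and H4 hyperacetylation from 61.5% to 91.0%. The part of width in the higher shares at Pol I sites was not tested. H3K9me3 was met by 8 of the Pol I sites (5.80%, 2.54 to 11.1), near the 7.16% of the sites without Pol I. Of the 683 peaks with Pol II and Pol I, 199 met it (29.1%, 25.8 to 32.7). The peaks with Pol II but without Pol I stood at 17.8%. Pol I seldom lay on the centre of a site, at 23.2% (16.4 to 31.1) without Pol II and 23.9% (20.7 to 27.2) with it. The widest, on chromosome 11 from 48665515 to 48670119 (4604 bp), held 2 Pol I peaks over 440 bp. The next lay on chromosome 14 from 51682404 to 51686175, on chromosome 13 from 16107798 to 16111261, on chromosome 8 from 10964139 to 10967589 and on chromosome 11 from 50182532 to 50185701. All 5 met both acetylation marks and none met H3K9me3 or UBF.

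Pol II was usually some way off. The median gap to the nearest Pol II peak was 16526 bp (quartiles 4749 and 48337 bp) over 13080 sites, the other 21 lying on contigs that held no Pol II peak. It was 30216 bp where only the wider 50% of the Pol II list was kept. Within 1 kb of a Pol II peak lay 1057 sites (8.08%, 7.62 to 8.56), and 1558 (11.9%, 11.4 to 12.5) lay over 100 kb away. The median gap was larger for narrow sites, at 18929.5 bp for widths of 500 to under 1000 bp and 10760.5 bp for 3000 to under 5000 bp. The relation was not even over distance. The median width was 958 bp within 1 kb of Pol II, 1233 bp at 1 to 5 kb and 1004 bp beyond 100 kb. At 81.9% of the sites (81.2 to 82.5) the nearest Pol II peak lay on another H3K4me3 peak. Of all 30239 Pol II peaks, each counted once, 60.8% lay on an H3K4me3 peak. These shares are not like for like, as a Pol II peak can be the nearest of several sites.

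The sites close to Pol II differed in acetylation from those farther away. Within 1 kb H3K9ac was met by 76.1% (73.4 to 78.6) and H4 hyperacetylation by 59.4% (56.4 to 62.4). At 5 to 20 kb the order was the opposite: 74.97% of the sites (73.5 to 76.4) met H3K9ac, while 81.2% (79.9 to 82.5) met H4 hyperacetylation. The sites within 1 kb were narrow, with a median of 958 bp, but the order held within width groups. At 500 to under 1000 bp wide, H3K9ac and H4 hyperacetylation stood at 67.8% and 47.2% within 1 kb of Pol II, and at 57.5% and 69.7% at 5 to 20 kb. At 1000 to under 1500 bp they stood at 83.5% and 68.7% within 1 kb, and at 76.2% and 80.7% at 5 to 20 kb.

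**Figure D4:**
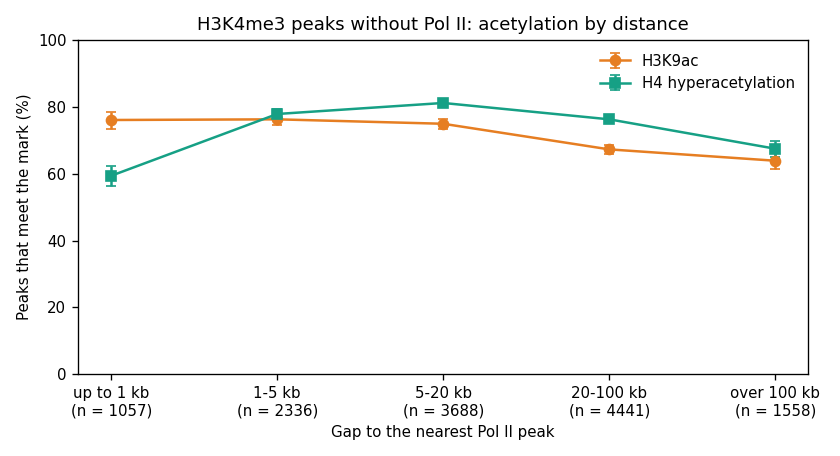
Share of H3K4me3 sites without Pol II that met H3K9ac (orange circles) or H4 hyperacetylation (green squares), in percent, in 5 groups of the gap to the nearest Pol II peak, with exact 95% binomial intervals. H3K9ac is the higher of the 2 within 1 kb, at 76.1% against 59.4%, and the lower one beyond 5 kb.

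The acetylation states split the same calls at the same sites, so they are not a separate observation. H3K9ac alone was found at 23.1% (20.6 to 25.7) of the sites within 1 kb of Pol II and at 7.32% (6.50 to 8.21) of those at 5 to 20 kb. H4 hyperacetylation alone was found at 6.43% (5.03 to 8.08) and 13.6% (12.5 to 14.7). Beyond 100 kb H3K9ac alone stood at 9.95% (8.51 to 11.5) and H4 hyperacetylation alone at 13.5% (11.9 to 15.3). Sites with H3K9ac alone had a median gap of 9732 bp to Pol II, those with both marks 15087 bp, those with H4 hyperacetylation alone 21737 bp and those with neither 24959 bp. Beyond 100 kb neither mark was met by 22.5% of the sites (20.5 to 24.7), and H3K9me3 by 10.1% (8.69 to 11.7), against 6.01% (5.33 to 6.75) at 20 to 100 kb.

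**Figure D5:**
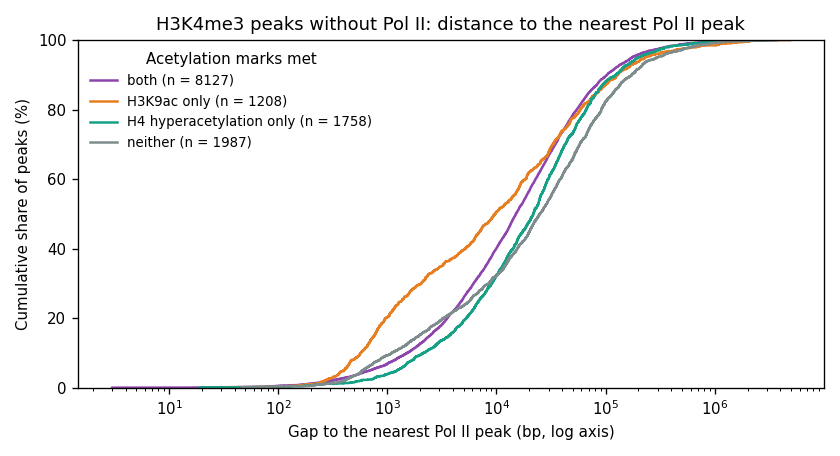
Cumulative share of H3K4me3 sites without Pol II (percent) against the gap to the nearest Pol II peak (bp, log axis), by the acetylation marks met. The curve of H3K9ac alone (1208 sites) rises first, with a median of 9732 bp, and that of neither mark (1987 sites) has a median of 24959 bp. The upper quartile was 44216 bp with H3K9ac alone and 42746 bp with both marks.

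Some acetylated sites were very far from any Pol II peak. The 4 farthest with both marks lay together at the start of chromosome 14, from 3332563 to 3333508, from 3438135 to 3439437, from 3677605 to 3678920 and from 3915652 to 3916957. The first 3 of them lay 2906474, 2800545 and 2561062 bp from the same Pol II peak, the nearest one on the chromosome. The fifth, on chromosome 1 from 28679261 to 28680305, lay 2249350 bp from Pol II.

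Sites without Pol II often had another H3K4me3 peak nearby, about as often as the peaks with Pol II. The nearest other H3K4me3 peak lay within 1 kb of 20.3% of the sites without Pol II (19.6 to 21.0) and of 18.2% of the peaks with Pol II (17.6 to 18.9). The median gaps were 7464 bp and 8445 bp. At 1380 sites (10.6%) the neighbour within 1 kb was an H3K4me3 peak with Pol II, against 1228 (8.76%) of the peaks with Pol II. Sites more than 20 kb from another H3K4me3 peak met H3K9ac less often, at 63.5% (61.9 to 65.0), than sites within 1 kb of one, at 75.3% (73.6 to 76.9). H4 hyperacetylation did not follow that order. It was met by 70.2% of the sites more than 20 kb away (68.7 to 71.7), against 68.4% of those within 1 kb (66.6 to 70.2), and stood at 83.0% (81.6 to 84.4) at 1 to 5 kb. The sites also differed in width, with medians of 1010 bp within 1 kb, 1260 bp at 1 to 5 kb and 1091 bp beyond 20 kb. The part of width in these shares was not tested.

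Along the chromosomes the sites were spread widely, and a few windows held many. Whether they clustered beyond the H3K4me3 peaks as a whole was not tested. On chromosomes 1 to 17, 19 and X they fell into 7031 windows of 100 kb, and 14 windows held 8 or more. The fullest, with 11 sites each, lay on chromosome 13 from 22000001 and from 23500001, out of 13 and 14 H3K4me3 peaks there. Their acetylation was unequal, with H3K9ac at 7 and 8 of the 11 sites and H4 hyperacetylation at 3 and 5, and UBF met 2 and 1. The window on chromosome 4 from 108800001 held 10 sites out of 12 H3K4me3 peaks. All 10 met both acetylation marks and none met H3K9me3, UBF or Pol I. Windows on chromosome 6 from 135200001 and on chromosome 8 from 26100001 held 9 sites each, out of 15 and 11 H3K4me3 peaks. These sites again all met both acetylation marks.

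Among chromosomes the share of H3K4me3 peaks under 5000 bp that lacked Pol II lay between 43.6% (chromosome 17, 40.9 to 46.5) and 53.5% (chromosome 12, 50.5 to 56.5). The H3K9me3 share of the sites ran from 3.08% on chromosome 7 (1.96 to 4.58) to 10.0% on chromosome 5 (8.03 to 12.3). The peaks with Pol II also differed between these chromosomes, at 9.66% on chromosome 7 and 25.2% on chromosome 5. On the X chromosome 61.5% of the 286 sites without Pol II met H4 hyperacetylation (55.6 to 67.2), against 75.8% (75.1 to 76.6) on chromosomes 1 to 19. The X peaks with Pol II stood at 97.0% (94.5 to 98.5), and those of chromosomes 1 to 19 at 97.3% (97.0 to 97.5). The X sites without Pol II were also narrower, with a median of 987 bp against 1151 bp, and lay farther from Pol II, with a median of 50304 bp against 16226 bp. The part of width and distance in the lower X share was not tested.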

How the data were processed

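For each antibody the deposited file is a single list of peaks, whose values are the chromosome, start and end in bp, per the file headers (the Pol I list has none). Whether they count from 0 or 1 is not stated. The submitters' processing notes list CASAVA 1.8.2, BWA and Picard, with mm9 and hg19 as builds; mm9 was taken as that of the mouse lists. How peaks were called and filtered is not given in the sources, nor whether the UBF replicates of the design text were pooled.

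Lines were split at carriage returns. Width is end minus start, and an overlap is at least 1 bp (Python 3.11.15, numpy 2.4.6, scipy 1.17.1, pandas 2.3.3). Intervals of differences are Newcombe intervals, and those averaged over width groups are normal. Overlap code was tested on simulated data. Named regions were taken from chromosomes 1 to 17, 19 and X by width, H3K9me3 coverage or distance. No mm9 genome or annotation was used here, so regions carry no gene names or sequences. The sites and comparisons were chosen with earlier results of these data known. The 6 alternatives changed the overlap, the distance to Pol II, the window, the chromosomes, the width of listed peaks, or merged H3K4me3 peaks.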

Additional observations from a re-analysis of the deposited data

How the results depend on the processing

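All 5 differences in share (sites without Pol II minus peaks with Pol II) kept their sign under the 6 alternatives, 30 values in all. Of 38 alternative values, 23 stayed within the interval of the reported value (or, for the number of sites, within 1.5 times) and 15 moved. With the nearest Pol II peak at least 1000 bp away, the H4 hyperacetylation difference was -20.2 points and the median distance 19825 bp. With at least 50% of the H3K4me3 peak covered, the differences were -26.7 (H3K9ac), -1.58 (H3K9me3), -3.21 (UBF) and -0.0285 points (Pol I, interval -0.0733 to 0.00559). In the 1000 bp around each H3K4me3 centre they were -9.69 (H3K9me3) and -2.79 points (Pol I). With the wider 50% of every other list they were -61.0 (H3K9ac), -46.3 (H4 hyperacetylation), -6.49 (H3K9me3) and -9.90 points (UBF), and the median distance was 30216 bp. With H3K4me3 peaks within 1000 bp merged, the H4 hyperacetylation difference was -19.9 points and the median distance 21446 bp. The distance moves by construction where near sites are left out, the Pol II list is shortened or near peaks are merged. The shares with at least 50% covered, or with the wider 50% of the lists, depend on peak widths by construction. How much of each move that makes up was not tested. For the other moves the cause was not tested. No paired analysis was possible because each antibody has 1 list. With no depth or score, a missing peak does not show that Pol II or a mark was absent.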

Other observations

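On unplaced contigs the H3K4me3 peaks, with and without Pol II, met H3K9me3 more often than on the chromosomes. Of the sites without Pol II, there were 118 on 57 contigs, and 69 of them met H3K9me3 (58.5%, exact 95% binomial interval 49.0 to 67.5), against 866 of 12982 (6.67%, 6.25 to 7.11) on chromosomes 1 to 19 and X. The contig peaks with Pol II stood at 72.9% (63.4 to 81.0), against 17.9% (17.3 to 18.6). The contig sites also met H4 hyperacetylation, at 97 of 118 (82.2%, 74.1 to 88.6), more often than H3K9ac, at 67 of 118 (56.8%, 47.3 to 65.9). The contig peaks with Pol II had the same order, at 94.4% (88.2 to 97.9) for H4 hyperacetylation and 81.3% (72.6 to 88.2) for H3K9ac. No contig site met UBF or Pol I; the UBF list names its contigs differently and the Pol I list holds none, so they could not meet.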
